A study of Brachypodium distachyon with 11 samples.

Results

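Regions of the Brachypodium genome that were listed as peaks in all 10 immunoprecipitation libraries of the series are described here. They were chosen by merging every deposited peak on chromosomes Bd1 to Bd5 that shared at least 1 bp, and by keeping the merged regions that hold a peak of each library. This gave 3296 of 37936 merged regions (8.69%), against 1699 listed in 9 libraries and 14000 listed in 1 library. Being listed is therefore a property the choice fixed, and peak strength is closely tied to it, so neither is a result. Because peaks of 10 lists had to overlap, the choice also acts on width and brings summits together, so both are given as a description. Neighbouring genes were not used in it.

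Chromatin of Brachypodium distachyon Bd21-3, a wild grass that serves as a model for temperate cereals, was precipitated with an anti-FLAG M2 affinity gel and sequenced (ChIP-seq). Each ChIP library came from seedlings of one overexpression line, ELF3_OX, phyC_OX or PRR37_OX, in which a ubiquitin promoter active in most cells drives the FLAG-tagged protein in addition to the plant's own gene. Seedlings were 2 weeks old and were grown at 20 °C under long days, short days or continuous light (LD, SD and LL). They were harvested at 0, 4 or 20 h of zeitgeber time (ZT), counted in LD and SD from lights on. Continuous light has no such daily start, and what ZT0 is counted from in LL is not known here. ELF3 gave 7 libraries, from LD and SD at each of ZT0, ZT4 and ZT20 and from LL at ZT0. PHYC gave 2 with identical labels (LD at ZT20) and PRR37 gave 1 (LD at ZT4). The labels do not say if different plants were used for the PHYC pair, and every other condition was a single library, so target, line and library cannot be told apart. Neither the input sample, from untagged Bd21-3, nor an anti-FLAG precipitation of untagged plants was analysed here. Whether a region needs a tagged protein to be listed was not tested.

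ELF3 is a scaffold of the evening complex, which represses its target genes at night as part of the circadian clock. PHYC is a phytochrome, a red light receptor that moves to the nucleus in light, and PRR37, also called PPD1, is a pseudo-response regulator of the clock that promotes flowering of temperate grasses in long days. In ChIP-seq a true binding site gives reads around one position, the summit, while open or highly transcribed chromatin can also yield reads in precipitations of unrelated proteins.

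The lists held between 12345 and 16458 peaks and were deposited down to p of about 0.1, so most peaks were weak. Read depth was unknown. Fold enrichment is the authors' ratio of reads at the summit to a local background, and −log10 p and q are the values their caller gave. These are values within a list, and a higher fold in one list than in another is not a measured difference between proteins. Intervals for shares are 95% Wilson intervals and cover counting error only. Gene positions are those of the RefSeq table of assembly Brachypodium_distachyon_v3.0, and coordinates printed are those of the deposited peaks, counted from 1.

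Regions listed in all 10 libraries held between 21.4% (ELF3 LL ZT0) and 28.6% (PHYC replicate 2) of the peaks of a library, but nearly all of its strong ones. Of the 100 peaks with the highest −log10 p in a library, between 91 and 99 lay in these regions, and of the 1000 strongest between 834 and 901. The study's threshold of q under 0.01 was applied here to the deposited q values, and strength beyond it was unevenly spread over the libraries. Among ELF3 libraries, 309 regions (9.38%) passed in LD at ZT0, where 2.13% of all listed regions passed. The SD library of the same time had 446 (13.5%, with 3.36% of all) and the LL library 491 (14.9%, with 3.26% of all). At ZT4 there were 231 in LD (7.01%, with 1.63% of all) and 211 in SD (6.4%, with 1.62% of all). ZT20 gave 332 in LD (10.1%, with 2.43% of all) and 164 in SD (4.98%, with 1.19% of all). The PHYC libraries, which share all labels, had 444 (13.5%, with 3.55% of all) and 170 (5.16%, with 1.47% of all), and PRR37 had 33 (1.0%, with 0.27% of all). The PHYC pair thus spanned most of the range seen among the ELF3 libraries. At least 1 library passed at 841 regions (25.5%), compared with 2.42% of all merged regions, and 26 regions (0.789%) passed in all 10. The other 2455 regions (74.5%) were listed 10 times without passing the study's threshold once.

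The weakest peak of a region came most often from the PRR37 list (987 regions) and from PHYC replicate 2 (540 regions), and least often from the ELF3 LL library (112 regions). The same lists were most often the missing one among the 1699 regions listed in 9 libraries. PHYC replicate 2 was missing at 430 of these and PRR37 at 327, against 43 for ELF3 LL ZT0 and 102 for PHYC replicate 1. The lowest fold of a region over the 10 libraries had a median of 2.30 (quartiles 2.05 and 2.66) and the highest fold a median of 3.60. Within a region the highest fold was a median of 1.54 times the lowest and at most 2.86 times. Over all regions the median fold was 2.84 to 3.13 in the ELF3 libraries, 3.02 and 2.76 in PHYC and 2.62 in PRR37.

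The 10 regions with the highest lowest fold over the libraries passed q under 0.01 in every library. Of these, 3 lay at chromosome ends: the far ends of chromosomes 3 (Bd3:59639357-59640145) and 1 (Bd1:75070886-75071545), with lowest folds of 12.8 and 10.6, both from PRR37, and the first bases of chromosome 4 (Bd4:1-308), with 5.78 in ELF3 SD ZT20. They were not alike in their summits, which spanned 313 bp at the end of chromosome 3 but 28 bp at the end of chromosome 1 and 13 bp on chromosome 4. In all, 5 of the 10 merged regions within 5 kb of a chromosome end were listed in all libraries, where the far end is the last base that any list covers.

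The other 7 lay away from chromosome ends, and 6 of them were centred within 500 bp of an end of a protein-coding gene: LOC100833891, LOC100831978, LOC100844818, LOC100828969, LOC100833617 and LOC100838704. At LOC100831978 on chromosome 1 (Bd1:54006118-54007076) the centre was 136 bp from a gene end, and the folds were 6.24, 7.31 and 6.73 in ELF3 LD, SD and LL of ZT0, 7.06 and 5.56 in LD and SD of ZT4, 7.57 and 5.65 in LD and SD of ZT20, 6.89 and 7.38 in PHYC and 5.57 in PRR37. The lowest values were those of ELF3 SD ZT4 and PRR37, which hardly differed, and the 10 summits spanned 30 bp. At LOC100844818 (Bd4:14975945-14976331) the ELF3 folds were 5.66, 6.43 and 8.17 (lowest, median and highest), with 8.26 and 6.26 in PHYC and 5.48 in PRR37, and the PHYC pair spanned most of the ELF3 range. LOC100828969 (Bd1:20009553-20010345) was the one of these 6 at which PRR37 was not the lowest or next to lowest library, with 6.41 against 5.29, 6.59 and 7.09 in ELF3 and 7.20 and 6.72 in PHYC. LOC100833617 (Bd4:43738724-43739562) had 5.74, 6.73 and 7.74 in ELF3, 7.46 and 7.55 in PHYC and 5.26 in PRR37. The seventh region overlapped the long non-coding RNA gene LOC112269920, 5158 bp from the nearest end of a protein-coding gene. Summits of all 7 spanned between 28 and 44 bp. The gene table gives no product for these numbered genes, so none is given here.

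**Figure D1:**
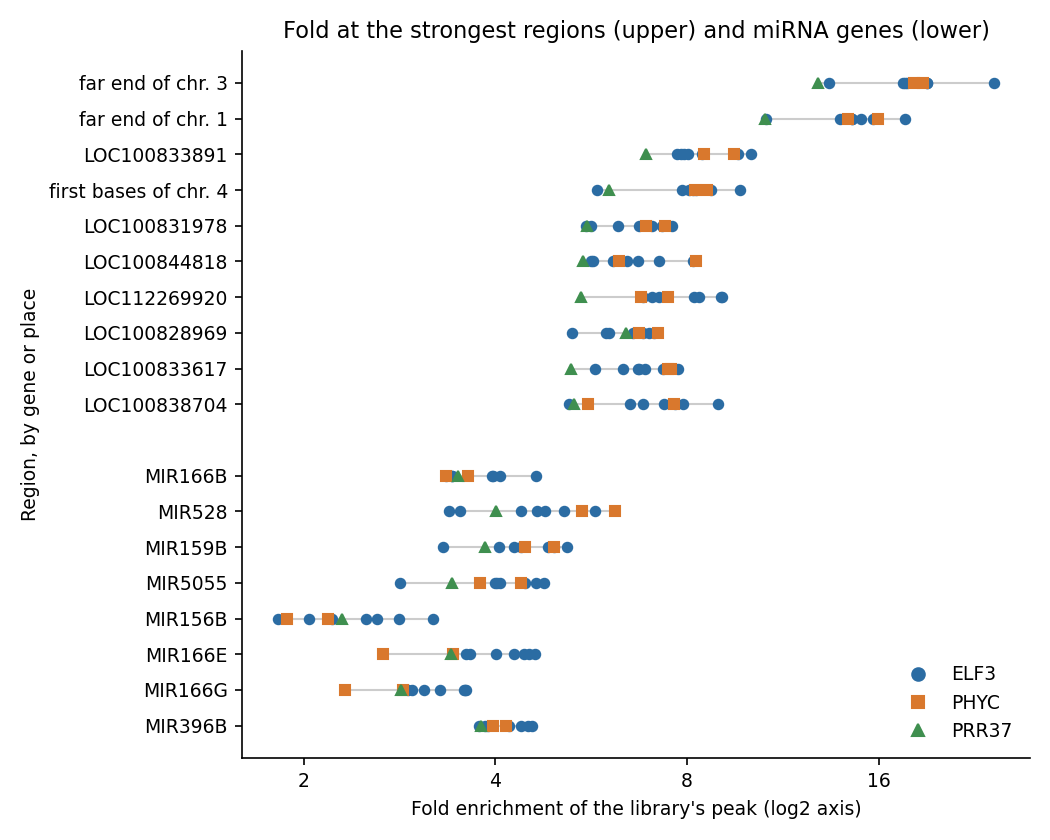
Fold enrichment (log2 axis) of the peak of each library at the 10 regions with the highest lowest fold (upper rows) and at the 8 miRNA genes that overlap a region listed in all libraries (lower rows). Each point is 1 library, ELF3 as circles, PHYC as squares and PRR37 as triangles, and the grey line spans the 10 libraries; at the far end of chromosome 3 they run from 12.8 to 24.3.

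The regions were concentrated at the ends of genes. Their centres lay within 500 bp of an end of a protein-coding gene in 2190 of 3296 cases (66.4%, 64.8 to 68.0), compared with 57.2% (54.8 to 59.5) of regions listed in 9 libraries and 33.5% (32.7 to 34.3) of those listed in 1. A further 325 (9.86%) were centred elsewhere inside a gene, 351 (10.6%) outside but up to 2 kb from one, and 430 (13.0%) farther away. The median distance of a centre to the nearest gene end was 225 bp, and 958.5 bp for regions listed in 1 library. When the genes were shifted by 2000, 10000 or 50000 bp the share at gene ends was 18.3%, 21.2% and 19.5%. Strand was not used here, so an end may be the start or the stop of transcription.

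**Figure D2:**
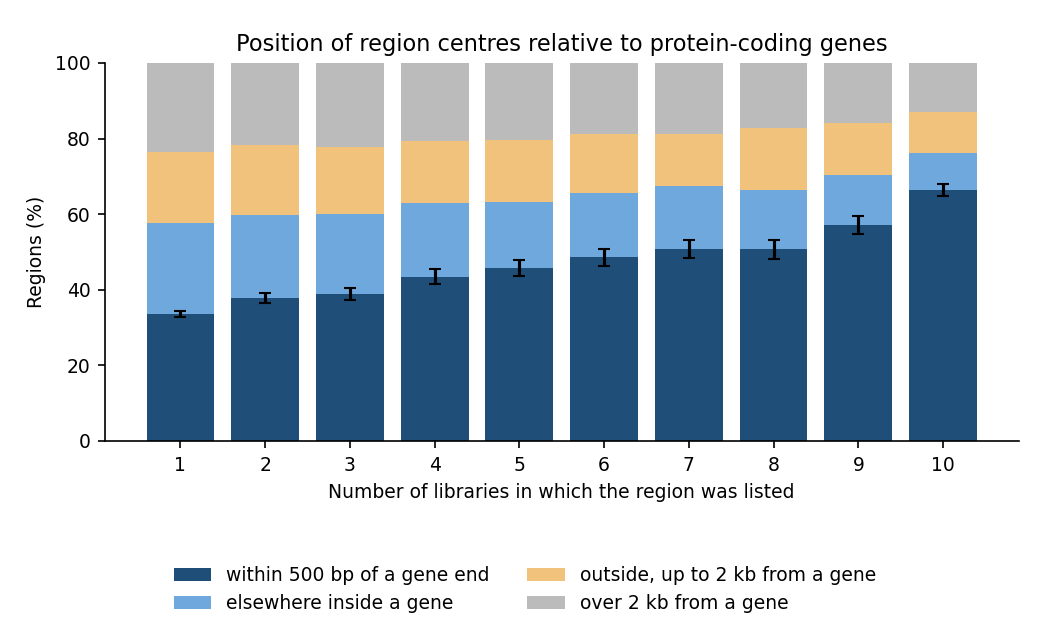
Share of merged regions (%) by where their centre lies relative to protein-coding genes, for regions listed in 1 to 10 libraries. Error bars are 95% Wilson intervals of the share within 500 bp of a gene end, which is 33.5% for regions listed in 1 library and 66.4% for those listed in all 10.

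Listing in more libraries went with stronger peaks, so the share at gene ends is also given within bands of best −log10 p. Among regions whose best −log10 p lay above 3 and up to 4, 61.7% (58.0 to 65.3) of the 684 regions listed in all libraries and 52.5% (50.7 to 54.3) of the 3036 others were at gene ends. Above 4 and up to 5 the shares were 65.5% and 58.0%, and above 5 and up to 7 they were 70.5% and 56.1%. Above 7 the share was 73.4% of 433 regions, against 5 of the 27 others (18.5%). For regions listed in all libraries the best −log10 p is the highest of more lists than for the others. Its scale also differs between lists, so strength was not fully matched within a band. When the regions listed in all libraries were split into 4 groups by their lowest −log10 p, the share was 61.9% in the weakest group and 72.4% in the strongest.

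Most centres at gene ends, 1481 of 2190 (67.6%), lay inside a protein-coding gene, though not necessarily the one whose end was nearest. This was also so for regions listed in 5 to 9 libraries (67.5% to 70.6%) and less so for those listed in 1 (58.6%). The fullest 100 bp interval was the first inside a gene, with 556 regions (16.9% of all). It was followed by the next 100 bp with 456 (13.8%) and by the 100 bp just outside with 338 (10.3%). Regions listed in 1 library were spread more evenly, with 4.65%, 4.9% and 3.69% in the same intervals.

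**Figure D3:**
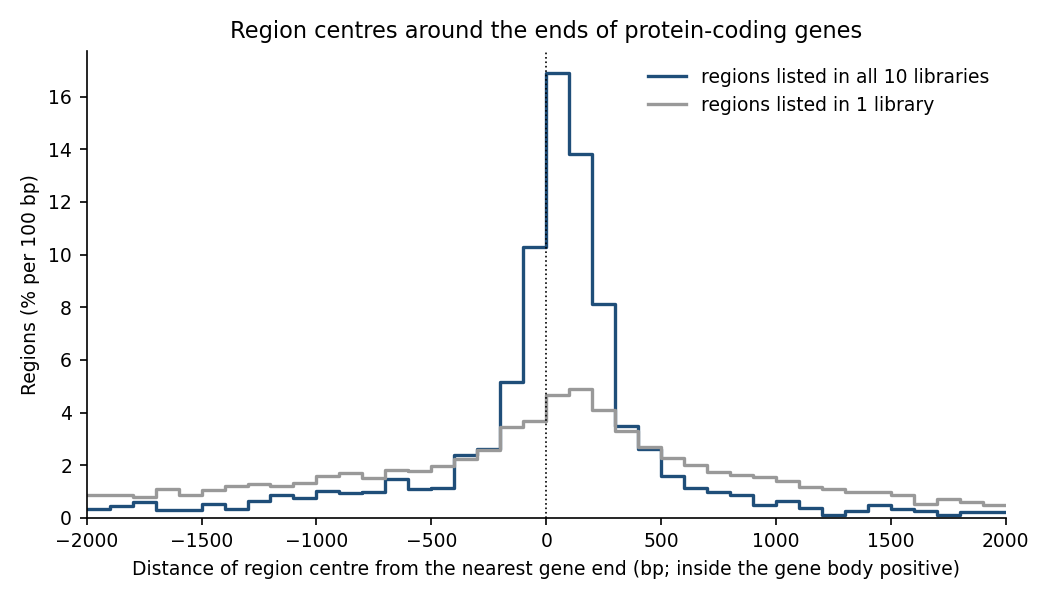
Distribution of region centres (% of regions per 100 bp) around the nearest end of a protein-coding gene, for regions listed in all 10 libraries and for those listed in 1. Positive distances are inside a protein-coding gene, not necessarily the one whose end is nearest. The interval from 0 to 100 bp holds 16.9% of the former and 4.65% of the latter.

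Over the chromosomes the number roughly followed that of genes, with 1047 regions on chromosome 1, 696 on chromosome 2, 778 on chromosome 3, 478 on chromosome 4 and 297 on chromosome 5. Per 100 protein-coding genes this was 14.0, 12.1, 13.7, 11.6 and 12.3. Chromosome 2 had fewer regions than chromosome 3 but more protein-coding genes (5769 and 5691). The share at gene ends was lowest on chromosome 4 (59.2%) and between 65.3% and 68.4% on the others. Gene-dense sequence held more of them per gene: when 1 Mb bins were split into 3 groups by gene number, there were 10.7, 12.2 and 14.5 regions per 100 genes from the sparsest to the densest. They made up 7.66%, 8.44% and 9.25% of all merged regions there, so listed regions of any kind were also more frequent per gene there. Regions were mostly isolated. The median distance to the next one was 20020 bp, and 260 (7.89%) had another within 2 kb.

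In total, 2546 regions overlapped 2575 genes of the table and 750 overlapped none. Protein-coding genes made up 2381 of these, or 9.36% (9.0 to 9.72) of the 25449 on the chromosomes. For long non-coding RNA genes the share was 4.13% (123 of 2978), for pseudogenes 2.74% (36 of 1312), for miRNA genes 2.58% (8 of 310), for tRNA genes 1.7% (9 of 528), for snoRNA genes 2.68% (8 of 299) and for snRNA genes 5.81% (5 of 86). None of the 153 rRNA genes overlapped a region, which allows a share of up to 2.45% (upper limit of the interval), and none overlapped a peak of any single library either. Longer genes have more room for an overlap, and the share of genes that overlap any merged region differed as well, at 55.5% for protein-coding, 14.8% for miRNA, 13.4% for tRNA and 8.7% for snoRNA genes. Of the genes with any merged region, 16.9%, 17.4%, 12.7% and 30.8% overlapped one listed in all libraries, so the order of gene types differs with the denominator. Of the protein-coding genes, 2284 carried 1 region, 92 carried 2 and 5 carried 3 (LOC100832937, LOC100832840, LOC100845775, LOC100845915 and LOC100843166). A region was centred within 500 bp of both ends at 49 genes, with separate regions at the ends of 44 of them, and 123 regions lay within that distance of the ends of 2 or more genes.

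Few of the overlapped genes have a name in the table. Of 65 protein-coding genes with a name, 9 overlapped a region: 2 of 8 MADS-box genes, 2 of 10 genes of the MAP kinase cascade, both ubiquitin genes, 1 of 8 secondary wall NAC genes, 1 of 4 CIPK and CBL genes, and CAD5. None of the 5 CBF cold-response genes, 9 SAPK kinase genes, 5 NDPK genes or 3 PP2C phosphatase genes did, although 1 SAPK and 1 PP2C gene had such a region within 500 bp. With 9.36% of all protein-coding genes overlapped, a count of 0 in groups this small says little. The identifiers of the clock and flowering genes that the study names could not be matched to the table, so ELF3, PHYC, PRR37 and those targets could not be looked up. LOC100845222, a MADS-box gene with AP1 among its synonyms, was checked and overlapped 1 merged region, listed in 2 libraries. Only overlap with the gene itself was counted here, while the paper's window for bound genes reached 2 kb beyond each end. The paper reports direct ELF3 control of AP1-related genes, and whether LOC100845222 is among them could not be told.

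At VRT-2, a MADS-box gene related to SVP, a repressor of flowering in Arabidopsis, a region (Bd1:44245363-44246523) was centred 317 bp from a gene end. Its folds were 2.81, 3.90 and 3.73 in ELF3 LD, SD and LL at ZT0, 3.53 and 2.68 in LD and SD at ZT4, 3.34 and 2.79 in LD and SD at ZT20, 3.66 and 3.54 in PHYC and 3.1 in PRR37. None passed q under 0.01. The region holds 15 peaks, 1 in each of 5 libraries and more in the other 5, and the strongest summits stood at 2 places. Relative to the median summit they lay at −553 bp in ELF3 SD ZT0, −526 bp in SD ZT4, −594 bp in LD ZT20 and −546 bp in PHYC replicate 2, and between −14 and 112 bp in the other 6 libraries. Each place thus held the strongest summit of both ELF3 and PHYC libraries. Which place was stronger does not show that the other was empty, since 724 bp of the region were covered by peaks of all 10 lists.

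AGL13 (LOC100827009), a MADS-box gene named after a floral gene of Arabidopsis, had folds of 2.56, 3.33 and 3.68 for ELF3 (lowest, median and highest), 3.26 and 3.29 for PHYC and 2.82 for PRR37, in a region centred 68 bp from a gene end (Bd1:70179395-70180195). The MAP kinase gene MPK6 had 2.29, 2.65 and 3.02 for ELF3, 3.27 and 2.38 for PHYC and 2.61 for PRR37, and MKK1 (LOC100823700), a kinase acting upstream of MAP kinases, had 2.85, 3.38 and 4.11, 3.50 and 3.28, and 2.99. At both genes PRR37 lay inside the ELF3 range. UBQ4 (LOC100832168), a ubiquitin gene, had the highest lowest fold of the 9, with 3.44, 3.81 and 4.74 for ELF3, 3.81 and 4.03 for PHYC and 3.43 for PRR37, and 3 of its libraries passed q under 0.01. The other ubiquitin gene, UBQ10 (LOC100841406), was weaker, with 2.38, 3.16 and 3.43, 2.46 and 3.15, and 2.98, in a region centred 4.5 bp from a gene end. CIPK15 (LOC100831178), a kinase that works with calcium sensors, CAD5, an enzyme of lignin synthesis, and SWN5, a NAC factor of secondary wall formation, had lowest folds of 1.89, 1.84 and 2.67 and no library past the threshold. CAD5 was the one named gene of these at which PRR37 (2.95) exceeded all 7 ELF3 libraries (2.01 to 2.51) and both PHYC libraries (2.0 and 1.84).

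Among miRNA genes, 8 overlapped a region listed in all libraries. These included 3 of the 9 genes of the MIR166 family, whose miRNA acts on HD-ZIP III transcription factors. MIR159B, whose miRNA acts on GAMYB factors, and 1 of 10 MIR156 genes, whose miRNA acts on SPL factors, also did. So did MIR396B, whose miRNA acts on growth-regulating factors, MIR528, a miRNA of monocots, and MIR5055. MIR159B (Bd2:1096867-1097378) had folds of 4.94, 3.31 and 4.84 in ELF3 LD, SD and LL at ZT0, 4.39 and 4.27 in LD and SD at ZT4, 5.19 and 4.05 in LD and SD at ZT20, 4.95 and 4.45 in PHYC and 3.85 in PRR37. In it 7 libraries passed q under 0.01. The MIR528 region (Bd1:73294057-73295683) also reached a protein-coding and a long non-coding RNA gene and had 3.38, 4.66 and 5.74 for ELF3 (lowest, median and highest), 6.16 and 5.47 for PHYC and 4.0 for PRR37. Again 7 libraries passed, and PHYC replicate 1 was the highest library.

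MIR166B, MIR166E and MIR166G lay 5499, 6944 and 4593 bp from the nearest end of a protein-coding gene, so these regions count among the 430 far from such genes. Their ELF3 folds were 3.35 to 4.64, 3.60 to 4.62 and 2.92 to 3.60. At MIR166E the PHYC libraries had 3.44 and 2.67 and PRR37 had 3.40, and at MIR166G they had 2.86 and 2.32 and PRR37 had 2.84. PHYC replicate 2 was thus the lowest library at both, as it was at 540 regions in all. At MIR166B the values were 3.35 and 3.63 for PHYC and 3.49 for PRR37, and the groups overlapped. MIR396B was the most even of the 8, from 3.78 to 4.57 in ELF3, with 4.16 and 3.96 in PHYC and 3.8 in PRR37. MIR156B was the weakest, from 1.82 to 3.19 in ELF3, with 1.88 and 2.19 in PHYC and 2.30 in PRR37. MIR5055 had 2.83 to 4.77, 4.39 and 3.78, and 3.42.

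Regions had a median width of 521 bp (quartiles 406 and 697, range 236 to 2235). In 2643 (80.2%) each library gave exactly 1 peak, and the median width was then 470 bp. The other 653 (19.8%) held up to 26 peaks and had a median width of 874 bp, since merging chains neighbouring peaks. The stretch covered by peaks of all 10 lists had a median of 205 bp, or 43.0% of the width, and 122 regions (3.7%) had no base common to all lists. The widest region (Bd4:2988008-2990242), inside LOC100833447 and 6042 bp from its nearest end, was 2235 bp wide and held 25 peaks, with folds of 2.12 to 4.03. The next, at LOC100821293 (Bd2:5101592-5103506), was 1915 bp wide, and its summits nevertheless lay within 124 bp. A wide region therefore need not have scattered summits, and at LOC100837024, which ranks among the 5 widest at 1754 bp, they lay within 79 bp.

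In these regions the peaks of single libraries had median widths of 311 to 344 bp for ELF3, 328 and 308 bp for PHYC and 332 bp for PRR37. The mean of the ELF3 medians was 5.26 bp above that of the other 3 libraries (328 and 323 bp), less than the spread among ELF3 libraries (exact permutation over 120 splits, two-sided p = 0.542, smallest possible 0.00833). The difference turned to −2.07 bp without PHYC replicate 2. The shortest peak of a list, which the caller's fragment length sets, was 179 to 202 bp for ELF3, 186 and 182 bp for PHYC and 190 bp for PRR37.

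Peaks that overlap must have summits near each other, so the spread of summits has no independent reference and is given as a description. Taking for each library the peak with the highest −log10 p in a region, the 10 summits spanned a median of 96 bp (quartiles 65 and 177, range 13 to 1280). They lay within 50 bp in 381 regions (11.6%) and within 100 bp in 1727 (52.4%), and spread over more than 500 bp in 165 (5.01%). The span narrowed with strength, from a median of 168 bp in the weakest of the 4 groups by lowest −log10 p to 112, 88 and 66 bp in the others. It was similar by location, at 95 bp for regions at gene ends, 101 bp inside genes, 98 bp near genes and 97.5 bp far from them.

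The narrowest span with 1 peak per library was 13 bp, at the first bases of chromosome 4, followed by 14 bp at the first bases of chromosome 3 (Bd3:1-526), where the sequence begins and summits have little room on one side. Away from chromosome ends it was 15 bp at a region on chromosome 3 (Bd3:39758513-39759168) that lay 2215 bp from LOC100846527 and passed q under 0.01 in all 10 libraries. Relative to the median summit its ELF3 summits lay between −6.5 and 3.5 bp, those of PHYC at 0.5 and −10.5 bp and that of PRR37 at −11.5 bp. Its folds were 5.66 to 7.11 in ELF3, 6.77 and 6.38 in PHYC and 4.88 in PRR37. A narrow span did not need a strong region: near LOC112272013 (Bd3:56334963-56335453) it was 17 bp with folds of 2.01 to 3.27 and no library past the threshold. The fifth, at LOC100845267, spanned 18 bp.

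Of the widest spans with 1 peak per library, the first was 943 bp, at LOC100821067 (Bd5:19524823-19525985). There 7 libraries lay within 26 bp of the median summit on either side, while ELF3 SD ZT4 was at −326 bp and the PHYC libraries were at 248 and 617 bp. At LOC100843145 (Bd2:9232089-9233048) the ELF3 summits spanned 67 bp and those of PHYC lay at −2.5 and 9.5 bp, but PRR37 stood at −620 bp, with a fold of 1.96 against 3.15 to 4.10 elsewhere. In the other 3 (LOC100822803, LOC100838307 and LOC100823771) the ELF3 summits alone spanned 772, 531 and 656 bp. Where a library listed several peaks in a region its strongest was taken, and the strongest can differ between libraries. One library lay over 200 bp from the other 9, which themselves lay within 100 bp, at 127 regions in all and at 58 of those with 1 peak per library. The 127 comprised 30 for PHYC replicate 2, 22 for PRR37, 19 each for ELF3 SD ZT0 and SD ZT4, and between 5 and 8 for each of the other 6 libraries. MIR528 was one of the 127, with the strongest peak of ELF3 SD ZT4 at −1130 bp and those of the other 9 between −21 and 66 bp. That region holds 24 peaks, with more than 1 in 9 libraries, so the value tells which of several peaks was strongest.

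Whether summits were nearer between libraries of one protein was then compared over pairs of libraries. The median distance between 2 libraries was 22 to 32 bp for pairs of ELF3, 28 bp for the PHYC pair, 24 to 34 bp for ELF3 with PHYC, 27 to 33 bp for ELF3 with PRR37, and 28 and 31 bp for PHYC with PRR37. The smallest, 22 bp, was between ELF3 LD and SD at ZT20. ELF3 LD ZT0 and LD ZT20 were each as near to PHYC replicate 1 (24 bp) as to one another (24 bp), and nearer than the PHYC libraries were to each other. ELF3 SD ZT0 was farthest from the rest on average (31.2 bp), followed by ELF3 SD ZT4 and PHYC replicate 2 (29.9 bp each). The shortest peak was longest in ELF3 SD ZT0 and SD ZT4 (202 and 201 bp). It was 192 bp in ELF3 SD ZT20, whose mean distance to the rest was the smallest (25.3 bp). PHYC replicate 2 and PRR37 have the lowest median −log10 p in the regions (2.91 and 2.61, against 3.05 to 3.62 elsewhere). The part of fragment length and depth in these distances was not tested.

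**Figure D4:**
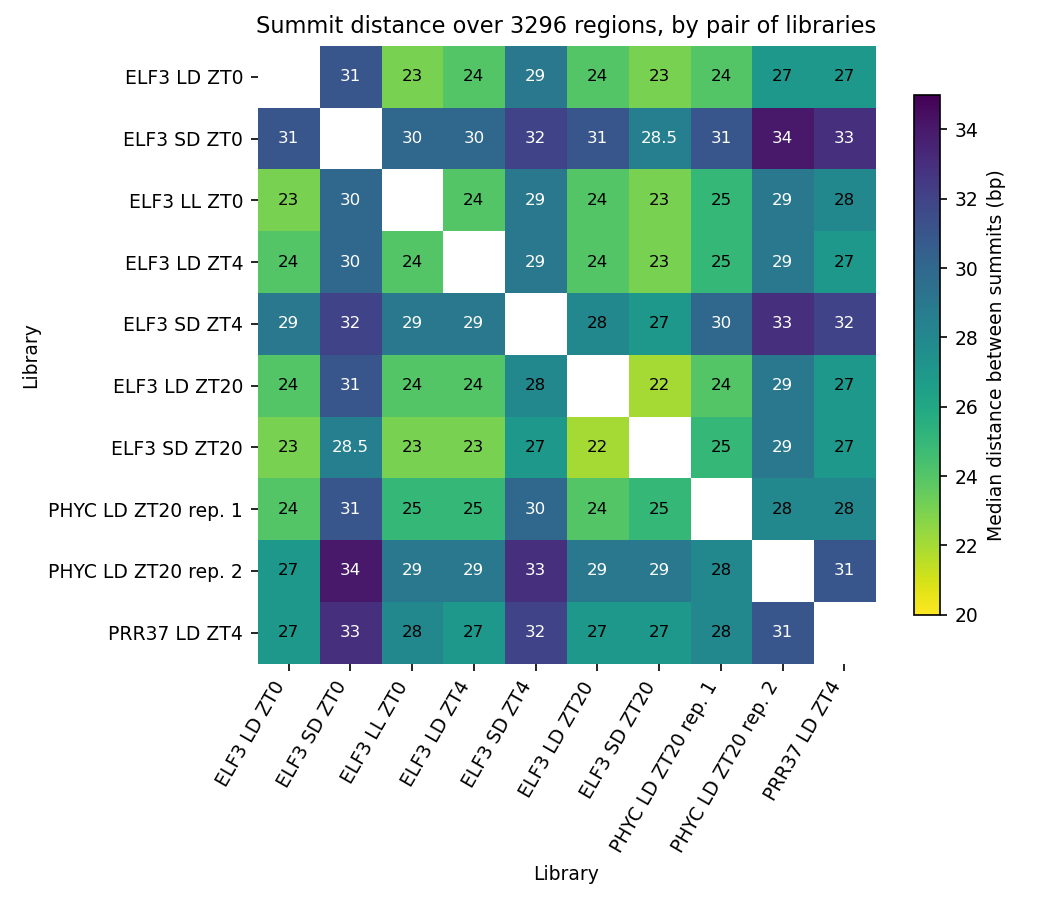
Median distance between the summits of 2 libraries (bp) over the 3296 regions, for each pair of the 10 libraries. Distances run from 22 bp (ELF3 LD ZT20 with SD ZT20) to 34 bp (ELF3 SD ZT0 with PHYC replicate 2), and the rows of ELF3 SD ZT0, ELF3 SD ZT4 and PHYC replicate 2 are the darkest.

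Pairs of ELF3 with another protein averaged 28.3 bp and pairs of ELF3 libraries 26.6 bp, a difference of 1.74 bp (exact permutation over 120 splits, one-sided p = 0.175, smallest possible 0.00833). With the mean distance capped at 500 bp in place of the median, which gives more weight to displaced summits, the difference was 5.58 bp (58.5 and 53.0 bp; exact permutation, one-sided p = 0.0333). Over the other alternatives this test kept its side of the threshold of 0.05. Among the 6 ELF3 libraries from LD and SD, distances between photoperiods exceeded those within by 0.75 bp (27.3 and 26.6 bp; exact permutation, one-sided p = 0.1, the smallest the 10 splits allow). For distances between times the difference was −0.375 bp (27 and 27.3 bp; exact permutation over 15 pairings, one-sided p = 0.867, smallest possible 0.0667). Neither design could pass the threshold. The photoperiod difference was −0.708, −0.542 and −0.375 bp without ELF3 LD ZT0, LD ZT4 and LD ZT20, and the time difference was 2.44 and 1.31 bp without LD ZT0 and LD ZT4.

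The libraries also differed slightly in where summits stood relative to the gene. In the 2190 regions at gene ends the median summit lay inside the gene body, at 83.5, 90.0 and 87.5 bp from the end for ELF3 LD, SD and LL at ZT0, 91.0 and 92.0 bp for LD and SD at ZT4, and 88.0 and 96.0 bp for LD and SD at ZT20. It lay at 76.0 and 67.0 bp for PHYC and at 74.0 bp for PRR37. The ELF3 values lay above those of the other 3 libraries without overlap, with means of 89.7 and 72.3 bp, a difference of 17.4 bp, while the PHYC libraries differed from each other by 9 bp. Summits inside the body made up 69.7% to 72.3% in ELF3 libraries, 67.4% and 65.3% in PHYC and 68.3% in PRR37. This measure was chosen after its values were seen, so it is given without a test. In the 972 gene-end regions listed in 9 libraries it was 25 bp, with 93 to 110 bp for ELF3 and 62 to 92 bp for the others. In the 13770 listed in 1 to 9 libraries it was 76.4 bp. In both of these sets a library's median covers only the regions it lists, so the libraries are compared over different regions. PHYC replicate 2 and PRR37 also have the weakest peaks. PHYC replicate 1, at 76.0 bp, had a median −log10 p of 3.47, inside the ELF3 range of 3.05 to 3.62. The part of peak strength was not tested.

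**Figure D5:**
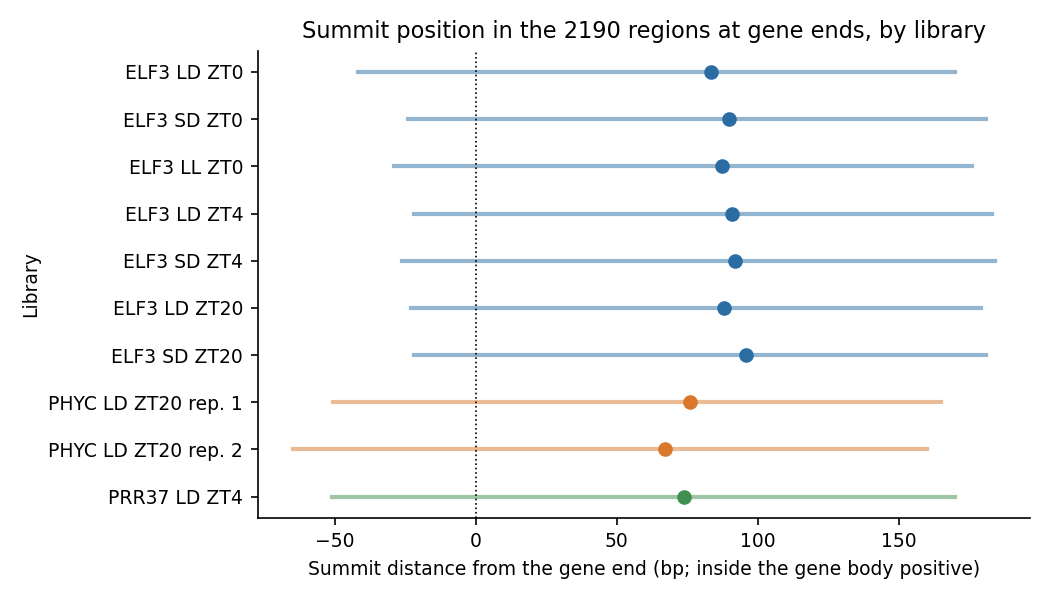
Position of summits relative to the nearest gene end (bp, inside the gene body positive) in the 2190 regions at gene ends, by library. Points are medians and lines run from the lower to the upper quartile; medians are 83.5 to 96.0 bp for ELF3, 76.0 and 67.0 bp for PHYC and 74.0 bp for PRR37, and the quartile ranges overlap widely.

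At the edge of the choice, the weakest region listed in all libraries was at LOC100831808 (Bd5:27760043-27760772), where the highest −log10 p of any library was 1.67 and folds ran from 1.54 to 2.05. In the next 4 the highest −log10 p was between 1.71 and 1.92. Just outside, the strongest region listed in 9 libraries was near the far end of chromosome 2 (Bd2:59130146-59130375), with folds of 9.86 to 15.8 in ELF3, 14.5 in PHYC replicate 1 and 8.13 in PRR37 and no peak in PHYC replicate 2. It passed q under 0.01 in each of the 9 lists that held it. The next 4 had lowest folds of 3.16 to 3.46 and lacked PRR37, ELF3 SD ZT4 or, at 2 of them, PHYC replicate 2. So listing in all 10 libraries took in weak places and left out some strong ones, and the values on both sides of the edge overlapped. Of the regions not listed in all 10, 78 (0.225%) passed q under 0.01 in at least 1 library.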

How the data were processed

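Each of the 10 peak lists came from 1 library, without pooling. The study's methods describe alignment with bwa against the Brachypodium genome, removal of duplicate, secondary and unmapped reads, and peak calling by MACS2. The submitters' processing notes list MACS2, Bowtie2, Trimmomatic, deepTools and Picard and name an Arabidopsis build, while chromosome names in the lists are those of Brachypodium. Whether the input served as control is not given in the sources used here. Values in the deposited lists are a score (the whole part of 10 times −log10 p), a fold enrichment (a ratio), a −log10 p and a −log10 q. The study's filter of q under 0.01 had not been applied to the deposited lists.

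Peaks on 5 chromosomes (142794 of 142801) were merged where they shared 1 bp. Each library gave its peak with the highest −log10 p per region, and distances were compared between libraries by exact permutation tests. Gene ends came from the RefSeq table, which gives neither strand nor product, so gene starts, product classes and promoters were not analysed, and 0 of 22 identifiers named in the paper matched it. Regions were named by rule: the 10 with the highest lowest fold, the 5 narrowest and 5 widest summit spans, the 5 widest regions, 5 on each side of the edge, and those at genes with a name. The regions and the lists of genes were chosen with earlier results of these data known. Settings tried were other overlaps, thresholds, windows and summit choices, and omission of single libraries. The software was scipy 1.17.1, pandas 2.3.3, numpy 2.4.6 and matplotlib 3.10.9 under Python 3.11.15. Functions were tested on simulated data, with 0 errors in 1529 comparisons of merging, distance and overlap. In simulated library sets a target difference was called in 4 of 40 sets that had none. It was called in 40 of 40 sets that had one. The simulated difference was not matched in size to the observed 1.74 bp, so these counts do not tell if a difference that small would be called.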

Additional observations from a re-analysis of the deposited data

How the results depend on the processing

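The number of regions listed in all 10 libraries was 3296 and fell to 1746 when every library needed a −log10 p above 2 and to 26 when every library needed q under 0.01. With 9 libraries it was 3334 to 3725, and a base common to all lists, 50% reciprocal overlap with ELF3 LD ZT20 and peaks of 100 bp on each side of the summit gave 3174, 2235 and 2952. The share at gene ends (66.4%) was 46.2% and 77.0% with windows of 200 and 1000 bp and 69.9% with a −log10 p above 2 in every library.

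Between ELF3 and the other proteins, the summit distance (1.74 bp) passed the threshold with the mean capped at 500 bp (5.58 bp) and under no other setting. Without single libraries it was 0.905 to 2.76 bp. By photoperiod (0.75 bp) the difference was −0.708 to 3.67 bp without single libraries, and it was negative without each of the 3 LD libraries. By time (−0.375 bp) it was −2.94 to 2.44 bp, and positive without ELF3 LD ZT0 or LD ZT4. The width difference (5.26 bp) was −2.07 to 9.93 bp and negative without PHYC replicate 2. The cause of these changes was not tested. Summit position at gene ends (17.4 bp) differed by 12.3 bp with a −log10 p above 2 in every library, by 25 bp in regions listed in 9 libraries and by 76.4 bp in those listed in 1 to 9, settings chosen after seeing the data, and by 14.7 to 19.2 bp without single libraries.

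Replicate numbers pair no libraries. With LD and SD paired by time, a setting added after seeing the data, the 4 possible swaps gave an exact permutation p of 0.25 (one-sided, smallest possible 0.25) for the photoperiod difference. Motif shares were not run, since no sequence was used here. Read depth was unknown, and most regions were weak in every list.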

Other observations

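Off the chromosomes, 6 libraries listed a peak at 1 place on scaffold_12, which therefore could not enter the regions described above. Its fold was 2.87, 3.31 and 2.91 in ELF3 LD, SD and LL at ZT0, 2.30 in ELF3 LD ZT20, and 3.32 and 2.01 in PHYC. PRR37, both ELF3 libraries of ZT4 and ELF3 SD ZT20 listed none there, and no library passed q under 0.01.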
